A study of Homo sapiens with 6 samples.

Results

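8 genes of the Hippo pathway's transcriptional output were followed in RNA-seq of 6 libraries made from the human triple-negative breast cancer line SUM159: CCN1, CCN2, ANKRD1, AMOTL2, LATS2, AJUBA, CRIM1 and THBS1. They were picked by name, 8 of 58336 genes in the count table, by Ensembl identifier. CCN1 and CCN2 are listed under their older symbols CYR61 and CTGF in the annotation. The choice was made with earlier results of these libraries in view, in which CCN2 had been called lower in lung-recovered cells than in cultured controls. Levels and fitted differences of the 8 genes are therefore given as a description. Tests are given for other genes of the pathway, but their lists were also chosen with earlier results known. Those p-values cannot be taken as independent of that choice. All 8 passed the filter on low counts.

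The cells are labelled ITGB4-high or ITGB4-low, after the beta-4 chain of integrins. Lung-recovered ITGB4-low cells comprised clones 1 and 3 co-injected with LM2 cells (1 library each) and clone 1 in mice that received bleomycin by the tracheal route (1 library). Cultured cells comprised ITGB4-high cells (1 library, so that every SE or p for this group takes its spread from the other groups) and ITGB4-low controls of clone 1 and clone 3 (1 library each). LM2 cells were derived from MDA-MB-231, another breast cancer line, and selected for growth in lung, and bleomycin is used to cause lung injury. The cells entered by the tail vein and, after lung dissociation and a night in a dish, were sorted for tdTomato, a red fluorescent protein. Cultured cells had neither the passage through the lung nor the sort, so trigger, lung passage and handling cannot be told apart. No lung-recovered library lacks a trigger, and the strain and age of the mice are not given in the labels used here. Each control is 1 clone, and no clone is given for the ITGB4-high cells. The labels do not say whether libraries of a group came from separate cultures or mice beyond the clone. The spread behind each p-value holds differences between clones 1 and 3 and, in the pooled lung-recovered class, between LM2 and bleomycin. It cannot be split into parts due to clone, culture or mouse, and technique.

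YAP and its relative TAZ are transcriptional coactivators that enter the nucleus when the Hippo kinases are quiet, for example in spread cells on stiff matrix, and bind DNA through TEAD factors. In epithelial and breast cancer cells their output includes secreted matrix proteins that act back on adhesion and growth, as well as inhibitors that restrain YAP itself. CCN1 and CCN2 are secreted, integrin-binding matricellular proteins and are among the targets most often read out for YAP. ANKRD1 is an ankyrin-repeat nuclear cofactor, and THBS1 is thrombospondin-1, a secreted glycoprotein that can activate latent TGF-beta. LATS2 is a Hippo kinase that phosphorylates YAP, AMOTL2 is an angiomotin-family scaffold that holds YAP in the cytoplasm, and AJUBA is a LIM protein that binds LATS kinases. CRIM1 is a membrane protein with cysteine-rich repeats that binds BMPs.

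The promoters of CCN2 and THBS1 are shown because these genes had the largest fitted differences between lung-recovered and control cells and because TEAD factors bind the letters GGAATG. The sequences are from RefSeq (GRCh38.p14, the same assembly as the hg38 named by the submitters), cover 250 bases directly before the gene start and run 5′ to 3′ along the gene's strand. Capitals mark GGAATG. The CCN2 stretch is chr6:131951373-131951622, minus strand, and the THBS1 stretch is chr15:39580829-39581078, plus strand.
CCN2: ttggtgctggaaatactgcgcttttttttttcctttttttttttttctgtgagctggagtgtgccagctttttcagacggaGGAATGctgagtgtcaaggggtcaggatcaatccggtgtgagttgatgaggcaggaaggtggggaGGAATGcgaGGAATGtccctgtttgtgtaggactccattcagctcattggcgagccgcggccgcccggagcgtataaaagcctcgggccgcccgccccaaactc
THBS1: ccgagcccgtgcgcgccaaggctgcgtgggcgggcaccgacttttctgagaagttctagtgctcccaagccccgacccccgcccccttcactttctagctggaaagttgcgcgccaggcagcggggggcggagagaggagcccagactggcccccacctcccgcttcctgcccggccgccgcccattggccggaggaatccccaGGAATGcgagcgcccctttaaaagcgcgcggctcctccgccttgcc
CCN2 held 3 copies, of which 2 began 104 and 95 bases before the start, and THBS1 held 1, which began 46 bases before it.

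Promoters of 6 of the 8 genes were in the RefSeq table, those of all but CCN1 and CRIM1. GGAATG, searched on both strands from 250 bases before to 50 after the RefSeq start, was found in 4 of the 6, namely CCN2, ANKRD1 (2 copies), THBS1 and LATS2, where the copy lay after that start. For LATS2 and ANKRD1, both on the minus strand, the 250 bases before the RefSeq start began at 21061587 and 90921088. The gene positions given below start at 21061547 and 90921276 on that strand. What lies before or after the start therefore differs between the 2 sources. In all 35116 promoters of the table the share with the motif was 14.03%, and 1.37% had 2 copies or more. Among 12 matched promoters of the other YAP signature genes, 4 held it. The AP-1 motif TGANTCA, which has no overlap in letters with GGAATG here, was found in 1 of the 6 (ANKRD1) and in 7.71% of all promoters. A match is a match of letters and was not tested for binding.

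ITGB4 was at 471, 442 and 306 CPM (counts scaled to a library size of 1e+06 with TMM factors) in LM2 clone 1, LM2 clone 3 and bleomycin, and at 384 CPM in ITGB4-high cells, against 25.9 and 24.6 CPM in control clones 1 and 3, so the lung-recovered libraries lay far above both controls. Total counts ran from 13607953 to 22222121 per library, which puts the limit set by a count of 0, taken as 3 counts, at 0.138 to 0.232 CPM; this covers counting error only. Of the receptor genes that define triple-negative tumours, ESR1 was at up to 0.416 CPM and PGR at 0 in every library, while ERBB2 was at 28.0 to 49.3 CPM in lung-recovered libraries and 34.01 CPM in ITGB4-high cells, against 62.3 and 66.8 CPM in controls. The summed level of 9 leukocyte markers was 1.41 to 6.73 CPM in lung-recovered libraries, 1.68 CPM in ITGB4-high cells and 1.20 to 2.29 CPM in controls, with CD3E at 0 in every library. PTPRC was at 2.32, 0.256 and 2.69 CPM in LM2 clone 1, LM2 clone 3 and bleomycin. It was at 0.208 and 0.184 CPM in control clones 1 and 3. The summed level of 7 endothelial markers was 2.71 to 11.4 CPM in lung-recovered libraries and 6.13 CPM in ITGB4-high cells, against 72.9 to 107.9 CPM in controls. Nearly all of the control sum was KDR, a VEGF receptor, at 70.8 and 105.3 CPM, while CDH5 was at 0 throughout. The summed level of 6 fibroblast markers was 510.4 to 847 CPM in lung-recovered libraries and 200.5 CPM in ITGB4-high cells, against 153 to 188 CPM in controls. In LM2 clone 1, LM2 clone 3 and bleomycin the collagen COL1A1 was at 90.4, 712 and 194 CPM. The receptor PDGFRA was at 449, 27.6 and 221 CPM, so the largest term of the sum differed between lung-recovered libraries. Control clones 1 and 3 had COL1A1 at 36.3 and 29.8 CPM and PDGFRA at 32.6 and 35.2 CPM. The list did not go one way. In the same order PDGFRB was at 6.74, 24.8 and 11.1 CPM, against 28.1 and 26.9 CPM in controls. COL3A1 was at 14.8, 70.6 and 44.4 CPM, against 38.9 and 74.4 CPM. DCN was at 14.6, 12.8 and 39.2 CPM, against 16.8 and 21.7 CPM, and LUM was at up to 0.256 CPM. The part of these markers in the results below was not tested. In bulk RNA, fewer cells of a type and less RNA per cell cannot be told apart.

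**Figure D1:**
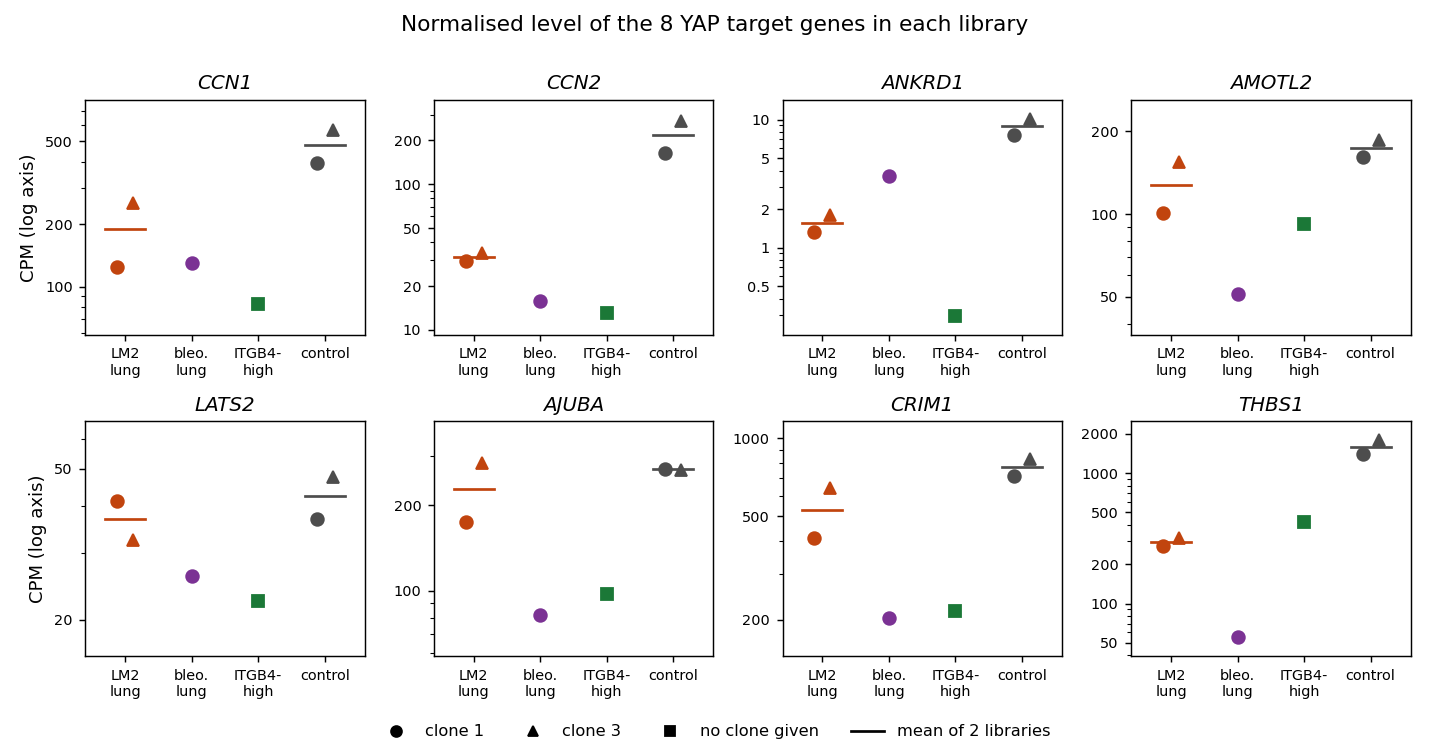
Normalised level in CPM (log axis, scaled separately per gene) of the 8 YAP target genes in each of the 6 libraries; circles are clone 1, triangles clone 3 and squares the ITGB4-high library, and bars are means of 2 libraries. CCN2 and THBS1 lay below both controls in all 3 lung-recovered libraries and in ITGB4-high cells, whereas LM2 libraries overlapped controls for LATS2 and AJUBA.

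The secreted matricellular genes were lower outside the control cultures. CCN2 (ENSG00000118523, chromosome 6, 131948176 to 131951373, minus strand) was at 29.7 and 33.6 CPM in the LM2 libraries of clones 1 and 3, at 15.8 CPM in the bleomycin library and at 13.0 CPM in ITGB4-high cells, against 163 and 269.5 CPM in control clones 1 and 3. Every other library lay below both controls, with 178 counts in the lowest one, ITGB4-high. The lung-recovered mean of 26.3 ± 9.35 CPM (SD, n = 3) against 216 ± 75.0 CPM in controls (SD, n = 2) gave a fitted log2 fold change of -3.04 (SE 0.37), and ITGB4-high against control gave -4.06 (SE 0.41). In order of level, CCN2 was highest in controls, then in LM2 lung, bleomycin lung and ITGB4-high cells. The step between bleomycin and ITGB4-high cells joins single libraries and has no spread to be set against.

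CCN1 (ENSG00000142871, chromosome 1, 85580761 to 85583962, plus strand), the close relative of CCN2, was at 125 and 254 CPM in the LM2 libraries of clones 1 and 3, at 130 CPM in the bleomycin library and at 82.4 CPM in ITGB4-high cells, against 395 and 565 CPM in controls. It had the same order at its ends, with ITGB4-high lowest and control clone 3 highest, but the LM2 clones differed from each other more than for CCN2. Its fitted log2 fold change was -1.50 (SE 0.35) in lung-recovered cells and -2.54 (SE 0.54) in ITGB4-high cells against control.

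THBS1 (ENSG00000137801, chromosome 15, 39581079 to 39599466, plus strand) was at 279 and 319 CPM in the LM2 libraries of clones 1 and 3, at 55.3 CPM in the bleomycin library and at 420.2 CPM in ITGB4-high cells, against 1405 and 1784 CPM in controls. Here the bleomycin library was lowest and ITGB4-high cells stood above every lung-recovered library, the reverse of CCN1 and CCN2 at that end of the order. The LM2 libraries were close, at 299 ± 28.6 CPM (SD, n = 2). The fitted log2 fold change over control was -2.87 (SE 0.68) in lung-recovered cells and -1.92 (SE 0.25) in ITGB4-high cells. Overlapping genes were counted at up to 5.91% of the THBS1 count, the highest of them at 8.54 CPM (FSIP1 is among them), and the strand setting of the counting is not given in the sources used here.

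ANKRD1 (ENSG00000148677, chromosome 10, 90912096 to 90921276, minus strand) was the least abundant of the 8, at 1.32 and 1.79 CPM in the LM2 libraries of clones 1 and 3, at 3.65 CPM in the bleomycin library and at 0.292 CPM in ITGB4-high cells, against 7.62 and 10.2 CPM in controls. It rested on few reads: 17, 28 and 57 counts in LM2 clone 1, LM2 clone 3 and bleomycin and 4 counts in ITGB4-high cells, against 110 and 221 in controls. The lung-recovered libraries lay below both controls, and bleomycin was the highest of the 3. The fitted log2 fold change over control was -1.97 (SE 0.45) in lung-recovered cells and -4.89 (SE 0.57) in ITGB4-high cells.

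The genes that act back on YAP had smaller fitted differences in lung-recovered cells. AMOTL2 (ENSG00000114019, chromosome 3, 134355874 to 134375479, minus strand) was at 101 and 155 CPM in the LM2 libraries of clones 1 and 3, at 51.0 CPM in the bleomycin library and at 91.7 CPM in ITGB4-high cells, against 161 and 185 CPM in controls. All 4 were below both controls, LM2 clone 3 by the smallest margin. Its fitted log2 fold change over control was -0.76 (SE 0.42) in lung-recovered cells and -0.92 (SE 0.30) in ITGB4-high cells. The lung value was -1.18 without LM2 clone 3 and -0.44 without bleomycin.

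LATS2 (ENSG00000150457, chromosome 13, 20973032 to 21061547, minus strand) was at 41.1 and 32.5 CPM in the LM2 libraries of clones 1 and 3, at 26.2 CPM in the bleomycin library and at 22.5 CPM in ITGB4-high cells, against 37.0 and 47.7 CPM in controls. LM2 clone 1 was between the controls, so lung-recovered and control libraries overlapped. The fitted log2 fold change over control was -0.35 (SE 0.23) in lung-recovered cells and -0.91 (SE 0.27) in ITGB4-high cells. The lung value was -0.53 without LM2 clone 1 and -0.16 without control clone 3.

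AJUBA (ENSG00000129474, chromosome 14, 22971174 to 22982642, minus strand) was at 175 and 283 CPM in the LM2 libraries of clones 1 and 3, at 82.1 CPM in the bleomycin library and at 97.1 CPM in ITGB4-high cells, against 269 and 267 CPM in controls. LM2 clone 3 was the highest of all 6 libraries, and the bleomycin and ITGB4-high libraries were the lowest. The fitted log2 fold change over control was -0.58 (SE 0.46) in lung-recovered cells and -1.47 (SE 0.33) in ITGB4-high cells. The lung value was -1.05 without LM2 clone 3 and -0.23 without bleomycin.

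CRIM1 (ENSG00000150938, chromosome 2, 36355926 to 36551135, plus strand) was at 412 and 644 CPM in the LM2 libraries of clones 1 and 3, at 203 CPM in the bleomycin library and at 215 CPM in ITGB4-high cells, against 713 and 828 CPM in controls. All 4 were below both controls. The fitted log2 fold change over control was -0.88 (SE 0.44) in lung-recovered cells and -1.84 (SE 0.34) in ITGB4-high cells. The lung value was -1.31 without LM2 clone 3 and -0.55 without bleomycin. FEZ2 and AC007378.1 overlap CRIM1 on the opposite strand, the higher of them at up to 111 CPM, and together reached 36.3% of the CRIM1 count in one library.

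Per kilobase of exon, the scale on which genes can be compared, control levels were highest for CCN1, at a mean of 196 CPM per kb, and THBS1, at 174 CPM per kb. CRIM1 followed at 108, CCN2 at 92.6, AJUBA at 44.9, AMOTL2 at 28.9, LATS2 at 7.59 and ANKRD1 at 4.49 CPM per kb. In lung-recovered cells the order differed: CCN1 was still first at a mean of 69.01 CPM per kb, CRIM1 was at 58.9, AJUBA at 30.1 and THBS1 at 23.8 CPM per kb. CCN2, at 11.3 CPM per kb, was below AMOTL2 at 17.1.

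**Figure D2:**
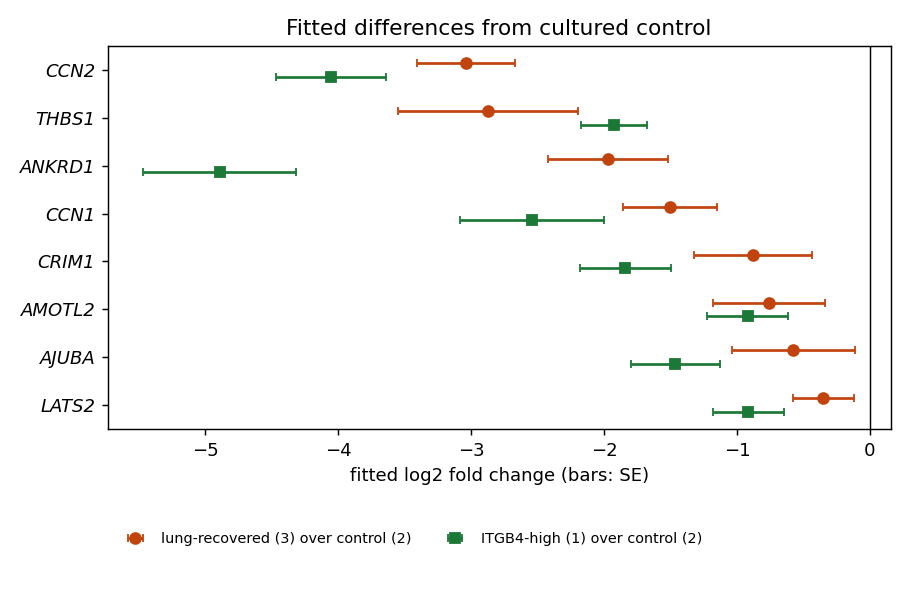
Fitted log2 fold change (x axis; bars are SE) of each of the 8 genes over cultured control, in lung-recovered cells (circles, 3 libraries) and in ITGB4-high cells (squares, 1 library). All estimates lie below 0; CCN2 and THBS1 are lowest in lung-recovered cells, at -3.04 and -2.87, and ANKRD1 and CCN2 in ITGB4-high cells, at -4.89 and -4.06.

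As a set, 6 of the 8 genes were below both controls in every lung-recovered library, a pattern that 25.4% of all 15673 tested genes had, and 0 were above both controls, as 20.4% of tested genes were. In ITGB4-high cells all 8 were below both controls, as were 45.2% of tested genes (43.6% were above both), with a single ITGB4-high library to place. By edgeR's quasi-likelihood test with Benjamini-Hochberg adjustment over all tested genes, 1 of the 8, CCN2, passed in lung-recovered cells against control, where 0.498% of genes did (0.23% lower and 0.268% higher). DESeq2 counted 4 (8.15% of genes) and limma-voom 1 (0.619%). In ITGB4-high against control edgeR counted 0 of the 8, where 0.0893% of genes passed (0.0319% lower and 0.0574% higher). At an unadjusted p under 0.05 it counted 8 (24.5% of genes), while DESeq2 counted 6 (9.68%) and limma-voom 0 (0.0128%). With the clone as a replicate block edgeR counted 5 of the 8 in ITGB4-high cells, where 363 of 15673 genes passed, and 1 in lung-recovered cells, where 39 did. That fit set the ITGB4-high library, which has no stated clone, midway between clones 1 and 3, and its ITGB4-high values depend on this placement. Nothing is read from these counts, since the genes were chosen with the values known. CCN2 was not counted when LM2 clone 1, the bleomycin library, control clone 1 or control clone 3 was left out, and without either control 0 genes of the table passed. The median fitted log2 fold change of the 8 was -1.19 in lung-recovered cells and -1.88 in ITGB4-high cells over control, beside medians of 0.0028 and -0.015 over all tested genes. These comparisons share their control libraries.

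Each of the 8 lies on a different chromosome. The median log2 fold change of the other tested genes of each one's chromosome ran from -0.04 to 0.13 in lung-recovered cells and from -0.26 to 0.19 in ITGB4-high cells over control. For tested genes within 5 Mb, 35 to 94 per gene, it ran from -0.15 to 0.23 in lung-recovered cells and from -0.31 to 0.21 in ITGB4-high cells. LATS2 had the highest of these in lung-recovered cells (0.23), and CCN1 the lowest in ITGB4-high cells (-0.31).

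Lung-recovered cells were next set against ITGB4-high cells, the cultured state with a similar ITGB4 level. Of the estimates, 7 were above 0 and 1, THBS1, was below, with ANKRD1 at the top (log2 fold change 2.92, SE 0.85, against 4 counts in ITGB4-high cells) and THBS1 at -0.95 (SE 0.81). CCN1, at 1.04 (SE 0.48), and CCN2, at 1.02 (SE 0.50), were in between. All lung-recovered libraries were above ITGB4-high for 4 genes, CCN1, CCN2, ANKRD1 and LATS2 (30.5% of tested genes), and below it for THBS1 (30.6%). AMOTL2 was near 0, at 0.16 (SE 0.55), and at -0.24 without LM2 clone 3. Without LM2 clone 3, CCN1 was at 0.65, AJUBA at 0.43 and CRIM1 at 0.54, and THBS1 was at -0.49 without bleomycin. The edgeR test counted 0 of the 8 (0.108% of genes, 0.0766% lower and 0.0319% higher). Of the 8, 1 stood at an unadjusted p under 0.05 (18.3% of genes), 1 passed by DESeq2 (6.93%) and 0 by limma-voom (0.0957%).

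**Figure D3:**
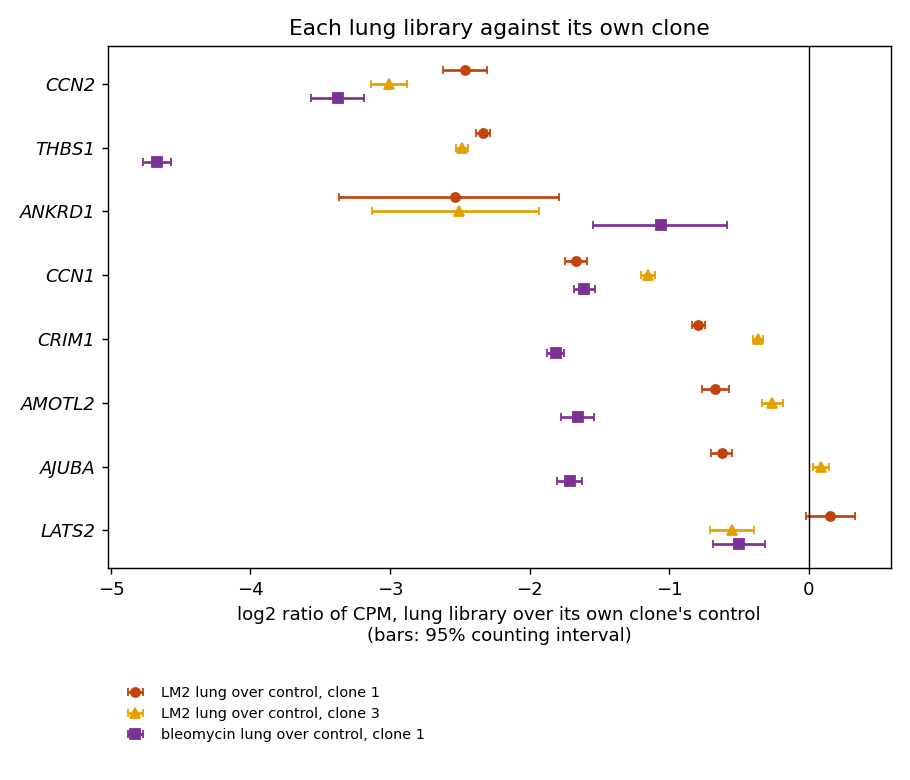
Log2 ratio of CPM of each lung-recovered library over the control of its own clone for the 8 genes; bars are 95% counting intervals, which hold no biological spread. The bleomycin ratio is the lowest of the 3 for 5 genes, not for CCN1, ANKRD1 and LATS2, and THBS1 in bleomycin has the lowest value of all, -4.67.

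Each lung-recovered library was also compared with the control of its own clone, with 1 library on each side and therefore no test. The log2 ratios of CCN2 were -2.46, -3.01 and -3.37 for LM2 clone 1, LM2 clone 3 and bleomycin clone 1, so it was lower than its own control by 5.51, 8.03 and 10.4 times. THBS1 was at -2.33, -2.48 and -4.67, the bleomycin library being 25.4 times below its control. These genes had ratios under -2 in all 3 pairs. CCN1 was at -1.67, -1.15 and -1.61, with LM2 clone 3 nearest to its control, and ANKRD1 at -2.53, -2.50 and -1.06.

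The remaining genes depended on the library. AMOTL2 was at -0.67, -0.26 and -1.66 in LM2 clone 1, LM2 clone 3 and bleomycin, CRIM1 at -0.79, -0.36 and -1.81, and AJUBA at -0.63, 0.08 and -1.71. For these 3 the order was the same, with bleomycin lowest and LM2 clone 3 closest to its control. LATS2 was at 0.15, -0.55 and -0.50, with a counting interval of -0.02 to 0.33 in LM2 clone 1 that included 0. A log2 ratio of -1 or lower was reached in LM2 clone 1 by 4 of the 8 genes (12.6% of tested genes), in LM2 clone 3 by 4 (5.7%) and in bleomycin clone 1 by 7 (8.15%). Bleomycin was below both LM2 libraries for 6 of the 8 genes, and the bleomycin and LM2 clone 1 ratios share 1 control library.

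Clone 3 was above clone 1 for 7 of the 8 genes in controls, all but AJUBA, and for 7 in LM2 lung cells, all but LATS2. The coefficient of variation between the controls ran from 0.645% for AJUBA to 34.6% for CCN2, so CCN2, with the largest fitted difference in lung-recovered cells, was also the most variable of the 8 between controls.

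Other genes of the pathway were taken from lists chosen by function, with earlier results of these libraries known. Over all tested genes in lung-recovered cells against control, 20.5% stood at an unadjusted p under 0.05 by edgeR. DESeq2 called 8.15% of all tested genes and limma-voom 0.619%. Every lung-recovered library lay below both controls for 25.4% of tested genes. The shares for ITGB4-high cells are given above with the 8 genes. The list of other YAP signature genes held 16 genes, none of them among the 8, and all were tested. In lung-recovered cells against control 1 of them, TGFB2, fell and 0 rose (edgeR, adjusted over all genes; 36 of 15673 genes, 0.23%, fell). TGFB2, a TGF-beta ligand, was at 30.4, 31.5 and 39.3 CPM in LM2 clone 1, LM2 clone 3 and bleomycin and at 3.50 CPM in ITGB4-high cells, against 118 and 140 CPM in controls. It was lower in every lung-recovered library than in both controls (log2 fold change -1.94, SE 0.16, adjusted p = 0.0209, edgeR) and lower in the single ITGB4-high library than in control, with the spread taken from the other groups (-5.20, SE 0.25, adjusted p = 0.0277, edgeR). In lung-recovered cells it was higher than in that single library, again with no spread of its own on the ITGB4-high side (3.26, SE 0.27, adjusted p = 0.039, edgeR). This gene had also been called in the earlier results. The lung call did not hold without the bleomycin library (adjusted p = 0.0571, edgeR) or without control clone 1 (0.242) or control clone 3 (0.337). Without control clone 1 or clone 3 the ITGB4-high call was lost too (0.33 and 0.371, edgeR), and it was at 0.063 by limma-voom. The call against ITGB4-high cells did not hold with the replicate block, which sets ITGB4-high midway between the clones (adjusted p = 0.0829, edgeR) or by limma-voom (0.0556), nor without bleomycin (0.0997), control clone 1 (0.165) or control clone 3 (0.171).

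The 16 signature genes did not go one way. In lung-recovered cells 9 estimates were below 0 and 7 above, with a median log2 fold change of -0.23 beside 0.0028 over all genes, and in ITGB4-high cells 12 were below and 4 above, with a median of -0.40 beside -0.015. CCDC80, a secreted matrix protein named after its values were seen, was at 37.0, 244 and 49.0 CPM in LM2 clone 1, LM2 clone 3 and bleomycin and at 12.0 CPM in ITGB4-high cells, against 795 and 1229 CPM in controls. Its groups did not overlap, but its spread between lung libraries was wide and it did not pass (log2 fold change -3.20, adjusted p = 0.139 in lung-recovered cells; -6.40, adjusted p = 0.104 in ITGB4-high cells, edgeR). IGFBP3, an IGF-binding protein also named after its values were seen, had the highest estimate, at 51.3, 6.97 and 45.8 CPM in LM2 clone 1, LM2 clone 3 and bleomycin and 1.46 CPM in ITGB4-high cells, against 5.61 and 5.98 CPM in controls. It was higher than control in the clone 1 lung libraries and close to control in LM2 clone 3 (2.58, adjusted p = 0.181, edgeR).

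None of the pathway's own effectors passed the test in transcript level by edgeR without the replicate block. YAP1 was at 517, 437 and 369 CPM in LM2 clone 1, LM2 clone 3 and bleomycin and at 260 CPM in ITGB4-high cells, against 391 and 396 CPM in controls. Lung-recovered libraries lay on both sides of the controls (log2 fold change 0.16, SE 0.17, adjusted p = 0.611), and ITGB4-high was below them (-0.60, SE 0.18, adjusted p = 0.149, edgeR). TEAD1, the DNA-binding partner with the highest level, was at 493, 351 and 423 CPM in LM2 clone 1, LM2 clone 3 and bleomycin and at 351 CPM in ITGB4-high cells, against 363 and 421 CPM in controls (0.11, adjusted p = 0.762 in lung-recovered cells, edgeR). VGLL3, a vestigial-like cofactor of TEAD, had the largest estimate of the 7 effectors: 55.5, 118 and 28.9 CPM in LM2 clone 1, LM2 clone 3 and bleomycin and 31.9 CPM in ITGB4-high cells, against 217 and 299 CPM in controls. All libraries lay below both controls, but the gene did not pass (-1.94, adjusted p = 0.152 in lung-recovered cells; -3.02, adjusted p = 0.0841 in ITGB4-high cells, edgeR). Of the 7, edgeR counted 0 in lung-recovered cells against control (1 at an unadjusted p under 0.05, 1 by DESeq2, 0 by limma-voom) and 0 in ITGB4-high cells (3, 1 and 0; 1 with the replicate block). Messenger RNA does not show the phosphorylation or location of YAP.

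Of 16 Hippo kinases and other inhibitors of YAP, all tested, edgeR counted 0 in lung-recovered cells against control (6 at an unadjusted p under 0.05, 2 by DESeq2, 0 by limma-voom) and 0 in ITGB4-high cells (3, 2 and 0; 1 with the replicate block). Medians were 0.0034 and 0.11 on the log2 scale. MAP4K4, a kinase that can act on LATS, averaged 361 ± 84.6 CPM in lung-recovered cells (SD, n = 3) against 230 ± 23.7 CPM in controls (SD, n = 2), a log2 fold change of 0.65 (adjusted p = 0.203, edgeR). The kinase TAOK1 was at -0.07 (adjusted p = 0.756) and the LATS adaptor MOB1A at -0.32 (adjusted p = 0.293, edgeR). Estimates ran from -2.74 to 0.77 in lung-recovered cells.

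Among 8 other CCN and thrombospondin genes, 6 were tested and edgeR counted 0 in lung-recovered cells (1 at an unadjusted p under 0.05, 1 by DESeq2, 0 by limma-voom) and 0 in ITGB4-high cells (2, 2 and 0; 1 with the replicate block). CCN4, another secreted CCN protein and a WNT target, was at 34.9, 95.6 and 53.2 CPM in LM2 clone 1, LM2 clone 3 and bleomycin and at 5.77 CPM in ITGB4-high cells, against 131 and 157 CPM in controls. It was thus below both controls in every other library, without passing (log2 fold change -1.23, adjusted p = 0.18 in lung-recovered cells; -4.64, adjusted p = 0.0733 in ITGB4-high cells, edgeR). CCN5 was at -1.09 (adjusted p = 0.419) and THBS3 at -0.07 (adjusted p = 0.904) in lung-recovered cells. CCN6 and COMP were at 0 in every library.

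The 6 zyxin-family LIM genes, relatives of AJUBA, had a median of -0.01 in lung-recovered and 0.22 in ITGB4-high cells over control. By edgeR 0 passed in lung-recovered cells (1 at an unadjusted p under 0.05, 0 by DESeq2 and 0 by limma-voom) and 0 in ITGB4-high cells (2, 1 and 0). The most abundant, LPP, ZYX and LIMD1, were at -0.36 (adjusted p = 0.294), 0.15 (0.663) and -0.05 (0.857) in lung-recovered cells by edgeR.

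Genes of the actin cytoskeleton, many of them targets of SRF, were included because actin tension and YAP act together. Of 18 listed, 17 were tested, and 1, the tropomyosin TPM1, fell in lung-recovered cells and 0 rose (edgeR). In that comparison 8 stood at an unadjusted p under 0.05, DESeq2 counted 5, limma-voom 1 and the replicate block 0. Of the estimates 13 were below 0 and 4 above, from -2.28 to 1.07. TPM1, which stabilises actin filaments, was at 127, 153 and 117 CPM in LM2 clone 1, LM2 clone 3 and bleomycin and at 83.2 CPM in ITGB4-high cells, against 292 and 370 CPM in controls. All 4 were below both controls (log2 fold change -1.32, SE 0.17, adjusted p = 0.0491, edgeR), but with the replicate block it reached 0.0533, and without bleomycin, ITGB4-high, control clone 1 or control clone 3 it reached 0.174, 0.0514, 0.28 and 0.533. The list's median was -0.50 in lung-recovered cells and -0.64 in ITGB4-high cells, where edgeR counted 0 (9 at an unadjusted p under 0.05, 6 by DESeq2, 0 by limma-voom, 2 with the replicate block). The most abundant genes there were the myosin MYH9 (-0.34, adjusted p = 0.411), ACTB (0.02, adjusted p = 0.989) and the filamin FLNA (0.11, adjusted p = 0.82).

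Of 11 receptors for CCN proteins and thrombospondin-1, LRP1 fell in lung-recovered cells and 0 rose (edgeR). In that comparison 5 stood at an unadjusted p under 0.05, DESeq2 counted 2, limma-voom 1 and the replicate block 0. Of the estimates 6 were below 0 and 5 above. LRP1, an endocytic receptor that clears thrombospondin-1 and binds CCN2, was at 35.1, 69.7 and 55.8 CPM in LM2 clone 1, LM2 clone 3 and bleomycin and at 68.5 CPM in ITGB4-high cells, against 246 and 244 CPM in controls. The groups did not overlap (log2 fold change -2.19, SE 0.27, adjusted p = 0.0483, edgeR), and this gene too had been called in the earlier results. It reached an adjusted p = 0.0556 with the replicate block, and 0.178, 0.0514, 0.322 and 0.492 without bleomycin, ITGB4-high, control clone 1 or control clone 3 (edgeR). In ITGB4-high cells edgeR counted 0 of the 11 (4 at an unadjusted p under 0.05, 4 by DESeq2, 0 by limma-voom), with ITGB1 at -0.30 (adjusted p = 0.438), ITGA3 at 1.76 (0.0704) and SDC4 at 1.24 (0.322).

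Against ITGB4-high cells, edgeR counted 0 lung-recovered differences in each list other than the signature: of the Hippo inhibitors, effectors, CCN and thrombospondin genes, LIM genes, actin genes and receptors, 5, 2, 2, 2, 5 and 3 stood at an unadjusted p under 0.05. DESeq2 counted 2, 1, 2, 2, 1 and 3 of them and limma-voom 0 in each. Over all tested genes in this comparison 18.3% stood at an unadjusted p under 0.05 by edgeR. DESeq2 called 6.93% of them and limma-voom 0.0957%.

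**Figure D4:**
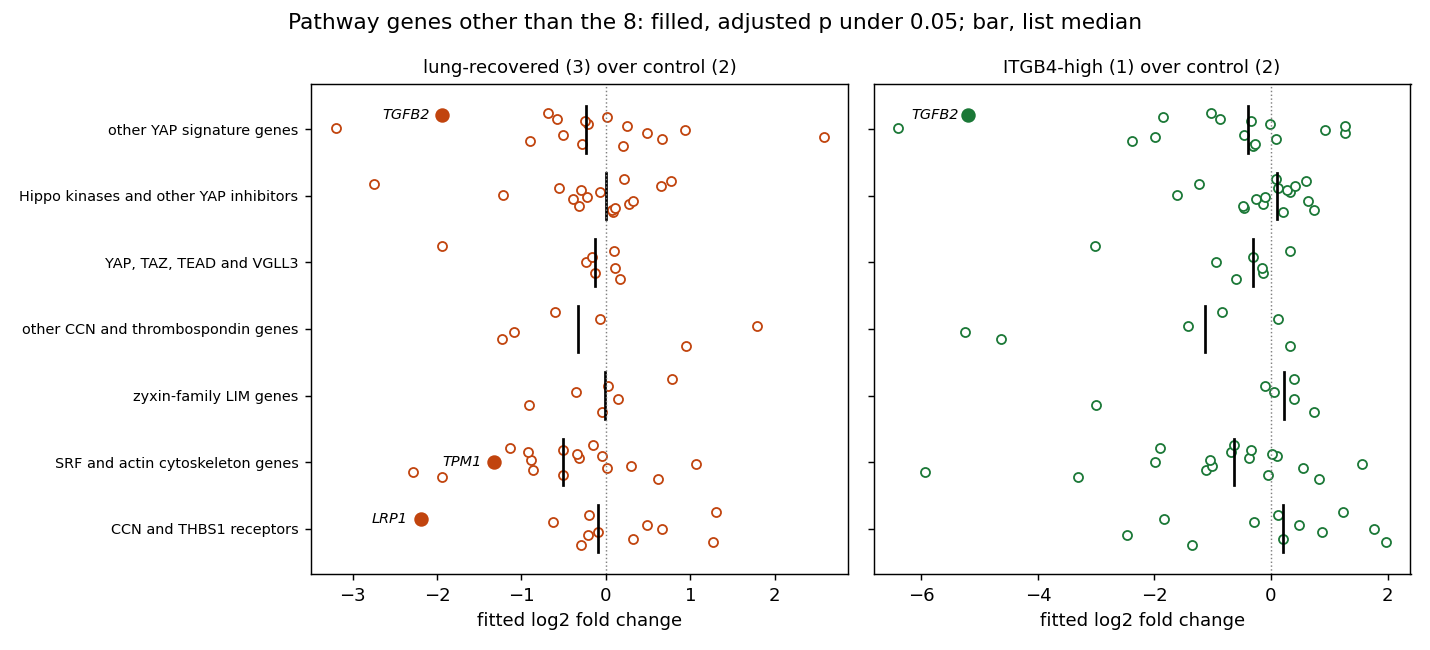
Fitted log2 fold change of tested pathway genes other than the 8, by list, in lung-recovered cells (left, 3 libraries) and ITGB4-high cells (right, 1 library) over control (2 libraries); filled points passed an adjusted p of 0.05 in edgeR, open points did not, and bars are list medians. TGFB2, TPM1 and LRP1 are filled on the left and TGFB2 alone on the right; medians lie between -0.50 and 0.0034 on the left.

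Genes whose profile across the 6 libraries was most like that of CCN2 or THBS1 were ranked by the root-mean-square distance between mean-centred log2 CPM values, over 10223 protein-coding genes whose log2 CPM averaged at least 2. The nearest to CCN2 were GAS6 (0.41), PDE5A (0.47), SEMA5A (0.48), FIBIN (0.53) and VGLL3 (0.55), where the median gene was at 1.65. GAS6, ligand of the AXL receptor family, was at 20.8, 25.2 and 20.5 CPM in LM2 clone 1, LM2 clone 3 and bleomycin. It was at 16.8 CPM in ITGB4-high cells, against 147 and 172 CPM in controls. All 4 other libraries lay below both controls, a likeness to CCN2 for which the ranking picked it. Among the other 7 genes CCN1 was nearest to CCN2 at 0.77, and 49 of the ranked genes were closer than it.

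The nearest to THBS1 were PLXDC2 (0.57), INSYN2B (0.63), ACSS1 (0.63), the cyclin CCND2 (0.67) and NANOS1 (0.71), where the median gene was at 1.66. PLXDC2 was at 7.28, 4.79 and 2.31 CPM in LM2 clone 1, LM2 clone 3 and bleomycin. It was at 15.5 CPM in ITGB4-high cells, against 23.5 and 34.1 CPM in controls. Bleomycin was lowest and ITGB4-high above all lung-recovered libraries, again a likeness for which the ranking picked the gene. CCN2 was at 0.95 from THBS1, with 16 ranked genes closer, and ANKRD1 was farthest of the 8 at 1.78, beyond 8024 of them. The lists for CCN2 and THBS1 had no gene in common. These distances rest on 6 libraries, 5 of them from 2 clones, and describe these libraries alone.

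**Figure D5:**
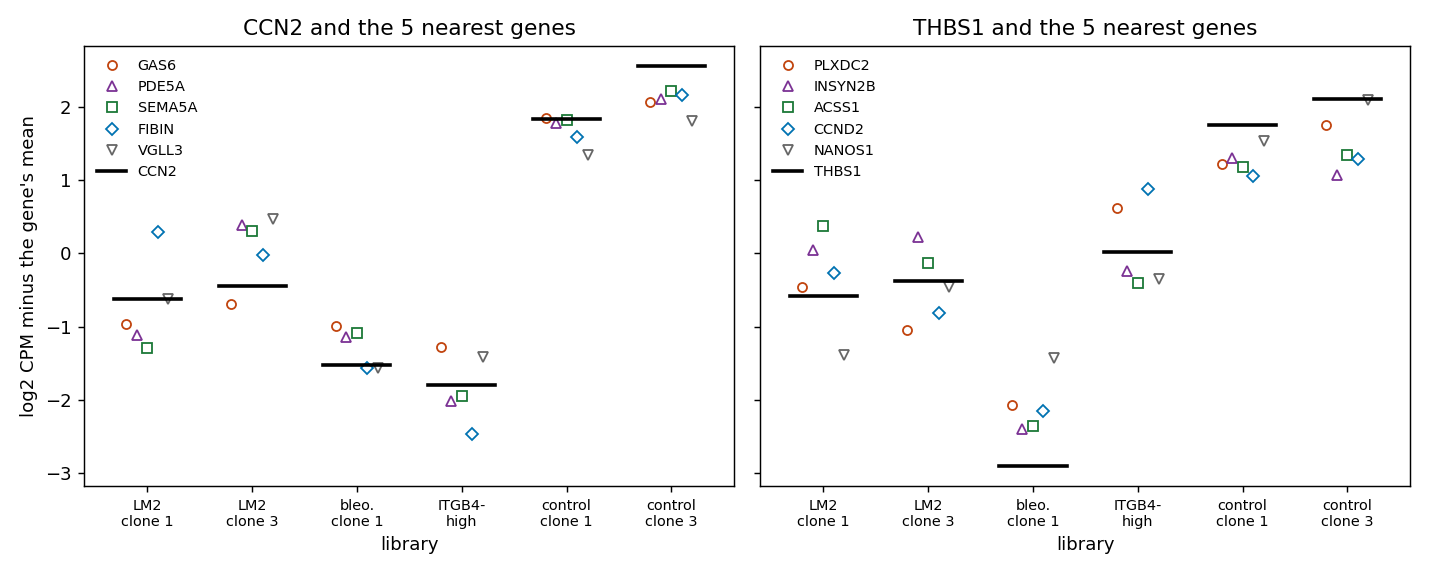
Log2 CPM minus each gene's mean over the 6 libraries for CCN2 (left, black bars) and THBS1 (right, black bars), with the 5 genes nearest to each as open symbols. These neighbours were picked for their likeness over the same 6 libraries. CCN2 and its neighbours other than VGLL3 are lowest in ITGB4-high cells, and VGLL3 is lowest in bleomycin; THBS1 and its 5 neighbours are all lowest in bleomycin, NANOS1 being nearly as low in LM2 clone 1.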

How the data were processed

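The authors deposited 1 table of unnormalised integer counts, with 58336 Ensembl identifiers as rows and the 6 libraries as columns. Poly(A) RNA was made into strand-marked KAPA mRNA HyperPrep libraries, per the labels' protocols, and STAR 2.7.1a and hg38 are named in the submitters' processing notes. No source used here names the counting program, its annotation or how it treated strand. GENCODE release 29 (GRCh38) gave names, positions and exonic lengths for 58216 identifiers, and 120 did not match.

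Counts were analysed with edgeR 4.0.16 (R 4.3.3): filterByExpr at a minimum count of 10 (15673 genes), TMM factors, robust quasi-likelihood fits on all 6 libraries, Benjamini-Hochberg adjustment over all tested genes and a threshold of 0.05. Lung-recovered cells were compared by fitting 3 classes, which left 3 residual degrees of freedom, and ITGB4-high with control by fitting 4 groups, which left 2. Standard errors are the log2 fold change over the square root of F. Log2 CPM used a prior count of 2. Own-clone ratios carry exact 95% counting intervals. The fits were also run on simulated counts with known changes, the same dispersion for every gene and no differences between clones or triggers. That run cannot show how the fits handle the spread of these libraries. Paired libraries differed by more than sampling noise (chi-square per degree of freedom 8.67 for controls and 80.1 for LM2), so each was counted. Clone numbers pair libraries because the titles give the same clone. The clone differences in LM2 and control correlated at 0.0012 across genes.

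The members and lists were chosen with earlier results of these data known. Named genes were the 8, called list genes, otherwise the 3 most abundant of a list, and the 5 nearest to CCN2 and to THBS1; CCDC80 and IGFBP3 fall outside this rule and were named after their values were seen. Alternatives were RLE factors, no filter, DESeq2 1.42.0, limma-voom (limma 3.58.1), the clone as a replicate block (ITGB4-high, with no stated clone, midway between the clones) and each library left out.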

Additional observations from a re-analysis of the deposited data

Results flagged for a closer look

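The estimate for AJUBA differed in sign between the clones in LM2-exposed lungs. The log2 ratio of AJUBA over the own-clone control was -0.6251 in clone 1 (175 against 269 CPM). In clone 3 it was 0.0846 (283 against 267 CPM). Neither 95% counting interval included 0, but these intervals hold counting error only, without spread between libraries or from scaling. By total counts the ratios were -0.75 and 0.15. The difference was not tested, since each clone has 1 library on either side. No group had the 4 libraries that a search for outlying samples needs.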

How the results depend on the processing

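All 88 alternative estimates for the 8 genes in lung-recovered cells over control kept their sign, as did all 80 in ITGB4-high cells over control and 79 of 80 in lung-recovered over ITGB4-high cells, the exception being AMOTL2 at -0.24 without LM2 clone 3. Of the first 88 estimates, 4 moved by more than the standard error. Own-clone ratios by total counts shifted by at most 0.12 and changed no sign.

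Counts of calls moved far more than estimates. For lung-recovered cells over control, where 78 genes passed, RLE factors gave 79, limma-voom 97, the replicate block 39, DESeq2 1278 and no filter 2152, and single libraries left out gave 0 to 1012. For ITGB4-high cells over control, where 14 passed, the values were 74, 2, 363, 1517 and 2707, with 0 to 6611 for libraries left out. For lung-recovered over ITGB4-high cells, where 17 passed, RLE factors gave 17, limma-voom 15, the replicate block 0, DESeq2 1086 and no filter 1406, with 0 to 1432. For the 16 other signature genes, 1 of which passed in each comparison, DESeq2 gave 4, 6 and 4 and no filter 6, 7 and 4 in that order of comparisons. The replicate block gave 1, 2 and 0, limma-voom 1, 0 and 0, and libraries left out 0 to 5, 0 to 12 and 0 to 3. For the other pathway lists together, with 2, 0 and 0 passing, DESeq2 gave 11, 16 and 11, no filter 17, 18 and 11 and the replicate block 0, 5 and 0. Libraries left out gave 0 to 12, 0 to 34 and 0 to 7. The cause was not tested. Of the 5 genes nearest to CCN2, 1 was among the nearest 5 without ITGB4-high and 0 by Pearson correlation, and the same numbers held for THBS1. Each left-out control leaves 1 control library, assumed to vary like the other groups.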
